A study of Trichoderma cf. simile with 24 samples.

Results

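Cultures of Trichoderma cf. simile WF8, a filamentous fungus, that had spent 1 day with 9,10-dibutoxyanthracene was compared, as mycelium, with the control of day 3. The members were all loci of the count table, 13298 listed and 10842 with enough reads to test, in 3 flasks a side, 6 of the 24 libraries of the series. Earlier values of these libraries placed the treated day 1 cultures close to the day 3 control along the control time course. This pair of groups was therefore compared for what still differed after that shift. The shift itself was bounded as matched for only part of the time course loci, as given below. Trichoderma species are ascomycetes of soil and decaying wood. In batch culture their mycelium passes from growth on the sugar and peptone supplied to a later phase as these are used up, and a large part of the transcriptome changes on the way. 9,10-Dibutoxyanthracene is a lignite model compound, an anthracene with butoxy groups that stands in for the aromatic ether structures of brown coal.

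All cultures of both groups were the WF8 strain, started from an agar plug and grown in the dark for 60 h at 29 °C and 180 rpm in 100 mL of broth with peptone at 10 g/L and maltose at 40 g/L (Sabouraud type). The treated group received 9,10-dibutoxyanthracene at 5 mg/L from a stock of 0.2 g/L in dichloromethane, which at that strength is 2.5% of the culture volume, and was harvested 1 day later. The control group received no lignite model compound and was harvested at day 3. Copper, manganese and veratryl alcohol are also listed as additions, and no source used here states whether the control received these or the solvent. Compound, solvent and day of harvest therefore cannot be told apart in this comparison. WF8 is a single isolate, the label of mycelium could not be checked against marker genes, and in bulk RNA fewer cells of a kind and less RNA per cell cannot be told apart.

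Poly-A RNA was sequenced as paired reads of 150 bp. The 6 libraries held 17920088 to 19570576 counts and 11270 to 11633 detected loci. Log2 CPM correlated at 0.948 to 0.984 between flasks of the treated group and at 0.941 to 0.973 between flasks of the day 3 control. The TMM factor, which corrects CPM (counts scaled to library size) for library composition, was 0.792 in day 3 control flask 3 and 1.03 to 1.19 in the other libraries compared. The files pair 0 IDs with a gene name or function, so loci are given by ID and length, and no gene list could be scored. Loci outside the numbered gene models are given by length alone. The same flask numbers recur at both days and for every compound, and no label says whether a flask was sampled at both days or that flasks were independent cultures, so the p-values reflect only how far these samples differ among themselves, which may be technical.

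After 1 day with 9,10-dibutoxyanthracene, few loci passed the test against the day 3 control. At an adjusted p under 0.05 in edgeR's quasi-likelihood test, 242 of 10842 loci were called, which is 2.23%, and 1868 had an unadjusted p under 0.05. Of these, 69 (0.636% of loci tested) were higher with the compound and 173 (1.6%) were lower. The same treated libraries differed from the day 1 control at 3442 loci, 31.7%, a contrast that shares its treated libraries with the first. The median absolute log2 difference over all loci was 0.36 against the day 3 control and 0.63 against the day 1 control. Of the 242 called loci, 222 differed at least 2-fold and 101 at least 4-fold. The differences of the lower loci were larger, with a median log2 difference of −2.02 (quartiles −2.93 and −1.42) against 1.26 (1.01 and 1.74) for the higher loci and −0.02 over all loci. In 68 of the 69 higher and 166 of the 173 lower loci the groups did not overlap, a separation that 25.6% of all tested loci showed. The calls were made on these same flasks, so a high share among called loci follows from the choice.

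The number of calls rested on single flasks. It was 8 without treated flask 2, 42 without treated flask 3, 34 without day 3 control flask 2 and 113 without day 3 control flask 3. It was 183 without treated flask 1 and 330 without day 3 control flask 1. When the fit held the 2 compared groups alone, edgeR called 2 loci, with 2097 at an unadjusted p under 0.05, while DESeq2 on all 24 libraries called 710, of which 274 were higher and 436 lower, all of the 242 among them. The pair of loci called with the compared groups alone was Trisim1_002349, described next, and Trisim1_006634 (312 bp). Trisim1_006634 held 8.3, 6.34 and 6.61 CPM in treated flasks 1 to 3 and 57, 50.8 and 66.3 CPM in the day 3 control (−3.03 ± 0.51; adjusted p = 0.00584, edgeR, all libraries in the fit), and 8.83 ± 1.33 CPM (SD, n = 3) at day 3 with the compound.

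**Figure D1:**
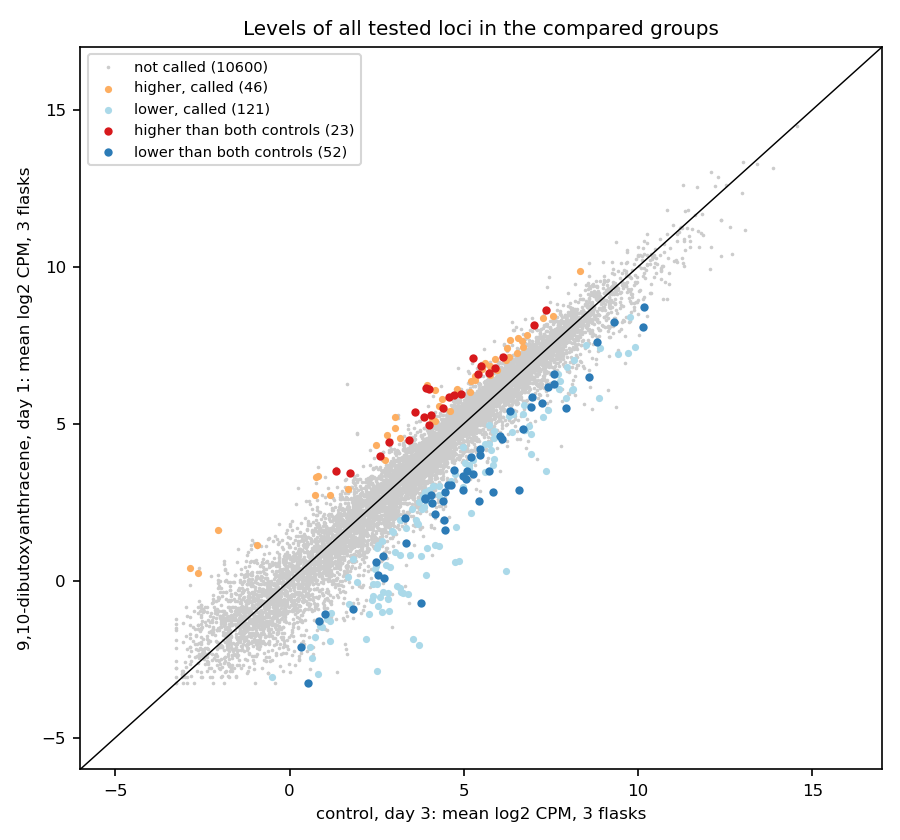
Mean log2 CPM of each tested locus over 3 flasks in the day 3 control (x axis) and with 9,10-dibutoxyanthracene at day 1 (y axis); the line marks equal levels and colours mark the edgeR calls. Most loci lie along the line, with 173 called below it and 69 above it, of which 52 and 23 lay beyond the controls of both days.

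Only 8 loci were called whichever of the 6 flasks was left out, 7 of them lower and 1 higher with the compound. These were the same 8 loci that the fit without treated flask 2 called, so that fit alone set the list. They are described first, and were singled out after their values were seen. Trisim1_002349 (546 bp) held 34.2, 27.8 and 29.7 CPM in treated flasks 1 to 3 against 116, 117 and 116 CPM in the day 3 control. The control flasks lay almost at one level, and all 3 treated flasks lay far under them. The log2 difference was −1.93 ± 0.29 (SE; adjusted p = 0.00212, edgeR). The day 1 control stood between, at 54.1 ± 15.2 CPM (SD, n = 3), and the cultures with the compound at day 3 stood at 138 ± 11.3 CPM.

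Trisim1_008453 (1674 bp) and its numbered neighbour Trisim1_008454 (1350 bp) were low together. Trisim1_008453 held 5.86, 1.89 and 2.28 CPM in the treated flasks against 19.8, 31.5 and 17.1 CPM in the day 3 control, a log2 difference of −2.76 ± 0.37 (adjusted p = 0.00121, edgeR). Trisim1_008454 held 5.99, 2.2 and 3.85 against 27.4, 28.9 and 12.4 CPM, −2.51 ± 0.38 (adjusted p = 0.00212). In both loci treated flask 1 was the highest of its group and still lay under every day 3 control flask. The next locus, Trisim1_008455 (2215 bp), was also called, at 19.8, 13.5 and 14.9 against 48.6, 55.6 and 31.6 CPM (−1.49 ± 0.29; adjusted p = 0.0114), though not in every fit without a flask. All 3 stood below the day 1 control as well, where their means were 24.7 ± 5.4, 30.2 ± 14.2 and 51.1 ± 22.3 CPM.

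Trisim1_007470 (1509 bp) had the smallest adjusted p of the comparison. It held 13.1, 9.26 and 9.65 CPM in the treated flasks against 34, 50.8 and 31.4 CPM in the day 3 control (−1.86 ± 0.23; adjusted p = 0.000909, edgeR) and 61.3 ± 14.9 CPM in the day 1 control. Trisim1_009471 (1218 bp) had the same order of groups. Its treated flasks held 14.7, 8.54 and 11.4 CPM against 47.9, 61.7 and 49 CPM in the day 3 control (−2.19 ± 0.33; adjusted p = 0.00212) and 137 ± 29.4 CPM in the day 1 control. Both loci fell in the control between the days (adjusted p = 0.0406 and 0.00357), and the treated day 1 cultures lay lower than the later control. The joint test for lying past the day 3 control along the time course, given below, called neither locus (adjusted p = 0.924 and 0.398, edgeR).

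Trisim1_010302 (1392 bp) held 45, 36.3 and 56.6 CPM in the treated flasks against 181, 271 and 297 CPM in the day 3 control (−2.44 ± 0.36; adjusted p = 0.00212, edgeR). Trisim1_006447 (2170 bp) held 3.29, 2.07 and 1.57 against 10.8, 12.3 and 7.74 CPM (−2.15 ± 0.31; adjusted p = 0.00212). In neither did the groups overlap. At day 3 with the compound Trisim1_006447 stood at 18.2 ± 3.55 CPM, beside 10.3 ± 2.34 CPM in the day 3 control, and its compound effect differed between the days (adjusted p = 5.81e-05 for the difference). Trisim1_010302 stood at 91.4 ± 22.2 CPM with the compound at day 3, above its level with the compound at day 1 (0.99 ± 0.35; adjusted p = 0.0444, edgeR). For this locus the test of whether the compound effect differed between the days had an adjusted p of 0.775 (edgeR).

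The single higher locus of this group was Trisim1_006271 (1887 bp). It held 39.9, 88.9 and 94 CPM in the treated flasks against 14.6, 13.9 and 19.4 CPM in the day 3 control, 2.22 ± 0.33 on the log2 scale (adjusted p = 0.00212, edgeR). Treated flask 1 lay well under flasks 2 and 3 and above all controls of both days, since the day 1 control stood at 19.3 ± 1.83 CPM. By day 3 with the compound its level was 28.7 ± 13.3 CPM. The 8 loci were chosen for passing the 6 fits that leave out a flask. In the 8 other alternatives Trisim1_002349 lost no call, and each of the other 7 loci lost 1, in the fit of the compared groups alone.

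**Figure D2:**
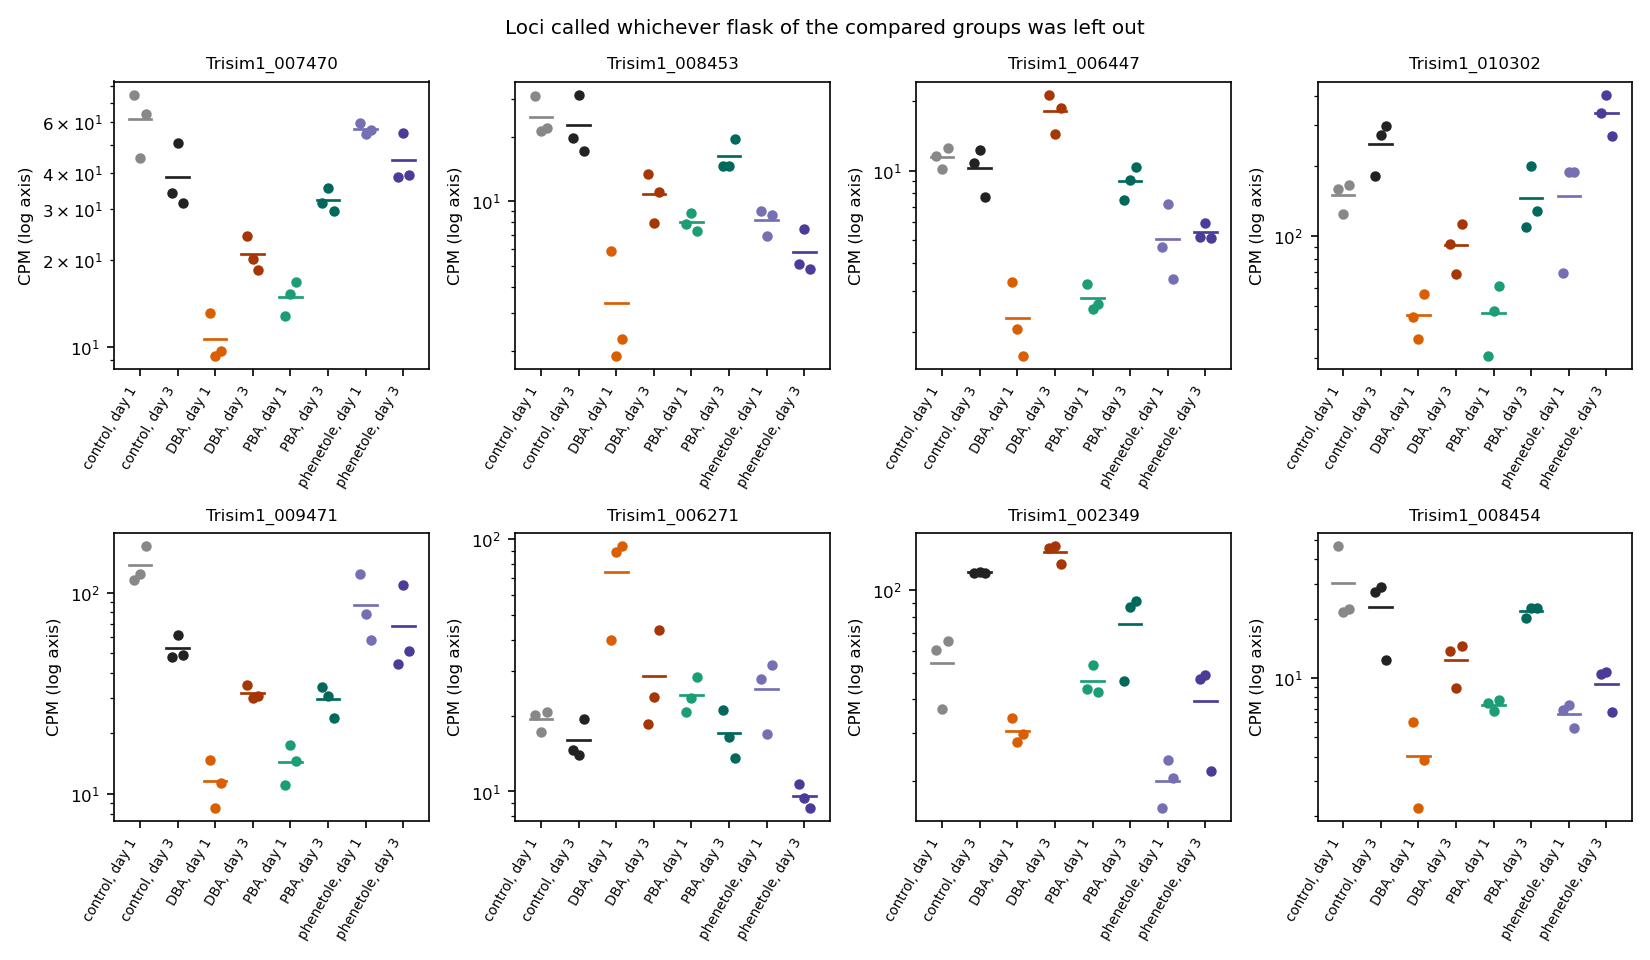
CPM (log axis) of the 8 loci called whichever flask of the compared groups was left out, in every library of the series; points are flasks, bars are means of 3 flasks, DBA is 9,10-dibutoxyanthracene and PBA is 4-phenoxybenzoic acid. In Trisim1_002349 the treated flasks lie at 27.8 to 34.2 CPM and the day 3 controls at 116 to 117 CPM.

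A locus between the control states can still be on the way from one to the other, so the loci that lay beyond both controls on the same side were tested separately. This test takes the larger of the edgeR p-values against the day 3 and the day 1 control. It called 75 loci (0.692% of those tested), of which 23 were higher than both controls and 52 were lower than both. Among the 8 loci above, 6 of the 7 lower ones and the higher one were in this class, with adjusted p from 0.000909 to 0.0293, and Trisim1_002349 was not (adjusted p = 0.209). The class held 2 loci without treated flask 2, 8 without treated flask 3, 9 without day 3 control flask 2 and 19 without day 3 control flask 3. With 3 groups alone in the fit it held 2, with DESeq2 290 and with library totals as the only scaling 25.

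The rule for named loci took those with the largest differences from both controls. A locus of 3233 bp outside the gene models held 9.9, 12.9 and 11.2 CPM in the treated flasks against 3.73, 1.17 and 3.18 CPM in the day 3 control (2.07 ± 0.38; adjusted p = 0.00847, edgeR) and 1.33 ± 0.221 CPM in the day 1 control. No treated flask overlapped a control flask, and at day 3 with the compound the level was back at 3.16 ± 0.156 CPM. A locus of 6451 bp outside the models held 27.2, 89.8 and 139 against 13.8, 12.9 and 19 CPM (2.49 ± 0.48; adjusted p = 0.011), with treated flask 1 close to the highest day 1 control flask at 25.9 CPM. Their adjusted p for lying beyond both controls was 0.0161 and 0.0332, and their main call was lost in 2 and 5 of the 14 alternatives.

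Trisim1_003713 (629 bp) had 0 counts in all 3 treated flasks and 0.693, 1.37 and 2.49 CPM in the day 3 control, 80 counts in all. Taking 3 counts per group as the floor, it was at least 29.1-fold lower than in the day 3 control and at least 35.2-fold lower than in the day 1 control (adjusted p for both = 0.0332, edgeR). At day 3 with the compound it stood at 4.33 ± 1.18 CPM, higher than any other group mean of the series. A locus of 1071 bp outside the models held 0.355, 0.584 and 0.596 CPM in the treated flasks. The day 3 control held 5.28, 17.4 and 26.5 CPM of it (−4.99 ± 1.07; adjusted p = 0.017) and the day 1 control 30.2 ± 31.8 CPM. Control flasks differed widely from each other in this locus. The lowest of them, day 1 control flask 1 at 2.86 CPM, still lay above every treated flask. Both calls were lost in 7 of the 14 alternatives.

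The largest differences of the whole comparison lay in loci with few reads or with one control flask apart. Trisim1_010230 (2141 bp) and a locus of 874 bp outside the models were highest in log2 difference, at 1.3 ± 0.683 and 1.1 ± 0.291 CPM with the compound. The day 3 control held 3 and 4 counts of them in all, ratios of 25.7-fold (counting interval 8.49 to 127) and 15.8-fold (adjusted p = 0.0385 and 0.0297, edgeR). The largest fall under the rule was that of a locus of 1080 bp outside the models, at 0.133, 0.27 and 0.0542 against 0.606, 98.8 and 32 CPM (−8.07 ± 1.84; adjusted p = 0.0252). Day 3 control flask 1 was within 1 CPM of the treated flasks, so the size of this fall was set by flasks 2 and 3. These 3 calls were lost in 7, 8 and 6 of the 14 alternatives.

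In CPM, the most reads separated the groups in 4 named loci. Trisim1_004098 (588 bp) held 339, 244 and 231 CPM with the compound against 836, 960 and 1758 CPM in the day 3 control (−2.12 ± 0.39; adjusted p = 0.00862, edgeR), and it lay below the day 1 control at 1765 ± 486 CPM too (adjusted p for both = 0.0175). Trisim1_005248 (561 bp) held 185, 148 and 200 against 609, 1494 and 977 CPM (−2.53 ± 0.66; adjusted p = 0.0444). With the compound at day 3 they stood at 270 ± 62.8 and 209 ± 39.5 CPM. Trisim1_007703 (2106 bp) held 361, 435 and 378 against 196, 146 and 150 CPM (1.25 ± 0.26; adjusted p = 0.015) and stood at 118 ± 31.8 CPM at day 3. Trisim1_002218 (1641 bp) held 627, 950 and 1390 against 472, 320 and 222 CPM (1.55 ± 0.4; adjusted p = 0.0444), and stood at 313 ± 68.4 CPM at day 3. The groups did not overlap in any of these loci, and the calls were lost in 3, 8, 6 and 6 of the 14 alternatives in the order named.

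Together the 173 lower loci took 0.546% ± 0.0528 of all counts in treated libraries and 1.68% ± 0.251 in the day 3 control (SD, n = 3), and the 69 higher loci took 0.788% ± 0.0409 and 0.319% ± 0.104. The same libraries chose both sets, so the direction of these shares is fixed by the choice and only their size is described. Calls were spread over levels from 1 to 1000 CPM, with 2.12% to 2.55% of loci called in each 10-fold bin, against 0.816% of the 1225 loci under 1 CPM. Of the 138 loci over 1000 CPM edgeR called 0, with 24 at an unadjusted p under 0.05, and DESeq2 called 12.

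For a minority of the loci of the control time course, the treated level was bounded close to that of the later control. Of the 2251 loci called between day 3 and day 1 in the control, 696 (30.9%) had a 95% interval of the treated minus day 3 control difference that lay within 2-fold either way. Over all tested loci the share was higher, at 40.2%, so the count shows no particular closeness of the time loci. Both comparisons share the day 3 control libraries. Of the 696, 313 had risen and 383 had fallen with time. Another 78 of the time loci were called against the day 3 control, and 1477 were neither matched nor called. For 53 time loci the interval lay wholly past 2-fold. Without day 3 control flask 1 the matched count was 371, and without flask 2 it was 402.

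Among matched loci, Trisim1_003518 (1350 bp) and Trisim1_009405 (1443 bp) had risen most with time. Trisim1_003518 held 108, 102 and 75 CPM in the treated flasks and 96.1, 89 and 77.9 CPM in the day 3 control, against 3.65 ± 1.92 CPM in the day 1 control; the treated difference from day 3 was 0.12 (95% interval −0.61 to 0.85). Trisim1_009405 held 4.8, 4.09 and 3.74 against 4.59, 4.5 and 3.8 CPM, from 0.162 ± 0.168 CPM at day 1. Treated and later control flasks were interleaved in both loci. At day 3 with the compound Trisim1_009405 stood higher still, at 15.9 ± 4.06 CPM.

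Trisim1_006480 (3517 bp) and Trisim1_004707 (1148 bp) were the matched loci that had fallen most. Trisim1_006480 held 37.7, 22.9 and 20.8 CPM in the treated flasks and 30, 32.1 and 17.8 CPM in the day 3 control, from 950 ± 305 CPM in the day 1 control, a fall of 34.6-fold with time. Trisim1_004707 held 6.48, 2.79 and 3.69 against 5.15, 2.25 and 5.25 CPM, from 77.3 ± 7.59 CPM. Their differences from the day 3 control were 0.03 (−0.65 to 0.7) and 0.04 (−0.84 to 0.92) on the log2 scale.

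**Figure D3:**
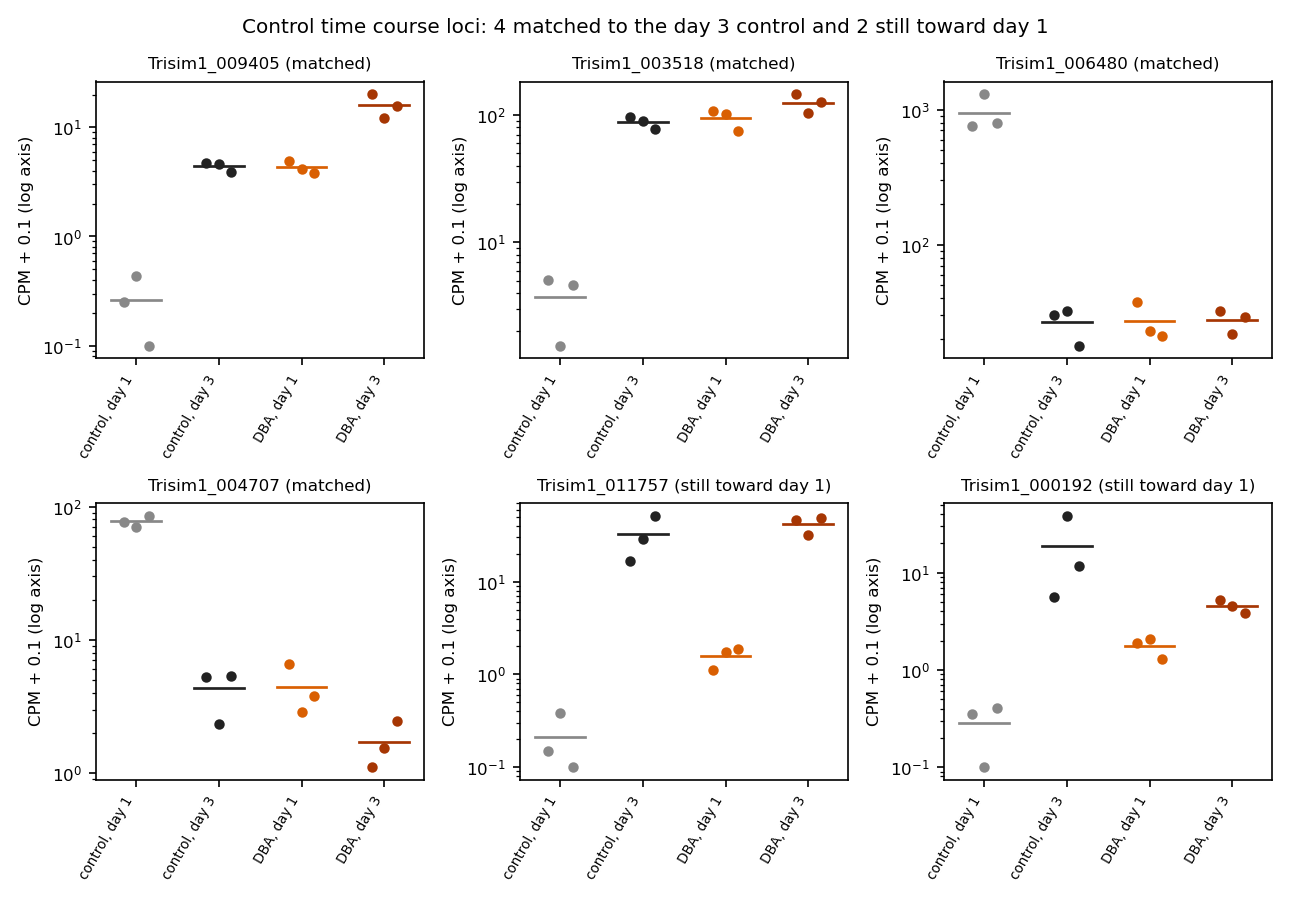
CPM + 0.1 (log axis) in control and 9,10-dibutoxyanthracene (DBA) cultures for 4 loci matched to the day 3 control and 2 that were still toward the day 1 control; points are flasks and bars are means of 3 flasks. In Trisim1_006480 treated day 1 flasks at 20.8 to 37.7 CPM overlie the day 3 control, while in Trisim1_011757 they lie at 1.02 to 1.79 CPM, between the controls.

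Loci for which the shift was incomplete were rarely called. Only 2 (0.0184% of those tested) differed from the day 3 control toward the day 1 level by the test of both differences, each with an adjusted p of 0.035 (edgeR). At an unadjusted p under 0.05 the same test held 416 loci, so the count of 2 does not show how many had completed the shift. Trisim1_011757 (639 bp) held 1.02, 1.66 and 1.79 CPM in the treated flasks against 16.6, 29 and 51.5 CPM in the day 3 control and 0.11 ± 0.149 CPM in the day 1 control. It stood at 41.9 ± 8.84 CPM at day 3 with the compound, within the range of the day 3 control. Trisim1_000192 (1532 bp) held 1.78, 1.98 and 1.19 against 5.5, 38.6 and 11.5 CPM, from 0.186 ± 0.164 CPM at day 1, and stood at 4.43 ± 0.688 CPM at day 3. Both treated groups had thus left the day 1 level (adjusted p = 0.00704 and 0.00202) without reaching that of day 3. Beyond the day 3 control in the direction of the time course edgeR called 0 loci, with 334 at an unadjusted p under 0.05, and DESeq2 called 19. The count of 2 was 0 without any 1 of the treated flasks or without day 3 control flask 2, 13 without day 3 control flask 1 and 4 without day 1 control flask 3, and DESeq2 gave 24.

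Of 16 loci described earlier for the compound or for the time course, chosen on these same libraries, 3 were called against the day 3 control, all lower, beside 2.23% of all loci tested. Among those not called, Trisim1_000288 stood at 23038 CPM with the compound and 25707 CPM in the day 3 control, −0.16 ± 0.45 on the log2 scale (adjusted p = 0.9, edgeR). Trisim1_003562 differed by −0.34 ± 0.38 (adjusted p = 0.702), Trisim1_001031 by −1.16 ± 0.84 (adjusted p = 0.513) and Trisim1_002817 by 1.4 ± 0.68 (adjusted p = 0.29). Trisim1_007510 (2654 bp) was lower, at 0.355, 0.225 and 0.0542 CPM against 1.08, 4.45 and 0.76 CPM (−3.25 ± 0.81; adjusted p = 0.0385). Its numbered neighbour Trisim1_007511 (864 bp), named after its values were seen, was also lower, with 1 count in the treated group and 45 in the day 3 control, a ratio of 49.1-fold with a counting interval of 8.37 to 1980 (adjusted p = 0.0286). Trisim1_003741 (1107 bp) held 56.3, 35.4 and 64.6 against 81.1, 275 and 150 CPM (−1.7 ± 0.39; adjusted p = 0.0273). In Trisim1_003502 (6492 bp) the groups overlapped, at 1.02, 0.359 and 0.542 against 0.996, 17.5 and 11.2 CPM (−3.93 ± 0.98; adjusted p = 0.0389).

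Filamentous fungi often keep genes of one pathway, such as those for a secondary metabolite, side by side, so the place of called loci in the gene numbering was counted. Of the 60 higher loci with a number, 10 (16.7%) had a directly numbered neighbour that was also higher, and so had 1.08% of all 10197 tested gene models. For lower loci it was 28 of 167 (16.8%), against 2.64% of all gene models. The numbering is taken as given, since the files hold no coordinates, and reads of adjoining models were not checked for overlap. They formed 5 runs of higher and 13 runs of lower loci, of which 2 lower runs held 3 loci.

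The longest lower run by the naming rule was Trisim1_011937 (1389 bp), Trisim1_011938 (2085 bp) and Trisim1_011939 (2915 bp). Trisim1_011938 held 0, 0.0449 and 0.0542 CPM with the compound against 0.13, 27.6 and 28.9 CPM in the day 3 control. Trisim1_011937 held 0.71, 1.03 and 3.63 against 1.43, 125 and 100 CPM, and Trisim1_011939 held 0.311, 1.12 and 0.759 against 4.64, 10.8 and 6.77 CPM. Day 3 control flasks 2 and 3 were high in the first and second loci while flask 1 was near the treated flasks, and in Trisim1_011937 the groups overlapped. Their log2 differences were −5.41 ± 1.32, −8.94 ± 2.14 and −3.33 ± 0.68 in the order of the numbering (adjusted p = 0.0363, 0.0385 and 0.0147, edgeR), and the calls were lost in 8, 7 and 6 of the 14 alternatives. In the higher direction the run was the pair Trisim1_000750 and Trisim1_000751. Trisim1_000750 (3377 bp) held 22.8, 51.9 and 85.7 against 18, 17.1 and 23.3 CPM (1.46 ± 0.36; adjusted p = 0.0385), with treated flask 1 inside the control range. Trisim1_000751 (1647 bp) held 55.2, 104 and 138 against 37.3, 46 and 37 CPM (1.3 ± 0.34; adjusted p = 0.0485).

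Higher loci were longer than the rest and more often outside the gene models. Their median length was 2205 bp, against 1500 bp for lower loci and 1578 bp over all tested loci. Of the 69 higher loci, 9 (13%) lay outside the gene models, and of the 173 lower loci 6 (3.47%), beside 5.95% of all loci tested. These are counts and medians without a test.

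The levels of both sets were then followed over the other groups. The median log2 CPM of the 69 higher loci was 6.06 ± 0.18 in treated day 1 libraries (SD, n = 3) and 4.44 ± 0.06 with the compound at day 3. It was 4.72 ± 0.28 and 4.72 ± 0.13 in the controls of days 1 and 3. With 4-phenoxybenzoic acid at 10 mg/L, the other compound added in dichloromethane, it was 5.5 ± 0.16 at day 1 and 4.99 ± 0.22 at day 3. With phenetole at 200 mg/L, added without solvent, it was 4.5 ± 0.03 and 5.16 ± 0.14. The treated day 1 and day 3 control values are those that chose the set, and the other values are a description. Over all tested loci the medians lay between 4.02 and 4.28 in the 8 groups.

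The median log2 CPM of the 173 lower loci was 2.57 ± 0.16 with 9,10-dibutoxyanthracene and 2.83 ± 0.15 with 4-phenoxybenzoic acid at day 1. The controls stood at 4.38 ± 0.17 and 4.42 ± 0.42 at days 1 and 3, and phenetole cultures at 3.93 ± 0.15 at day 1. At day 3 the 3 compounds were closer together, at 3.36 ± 0.14, 3.52 ± 0.25 and 3.51 ± 0.3 with 9,10-dibutoxyanthracene, 4-phenoxybenzoic acid and phenetole. The values with 9,10-dibutoxyanthracene at day 1 and in the day 3 control chose these loci, so that their order is fixed by the choice. The doses differ between the compounds, so the levels stand side by side without a test.

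**Figure D4:**
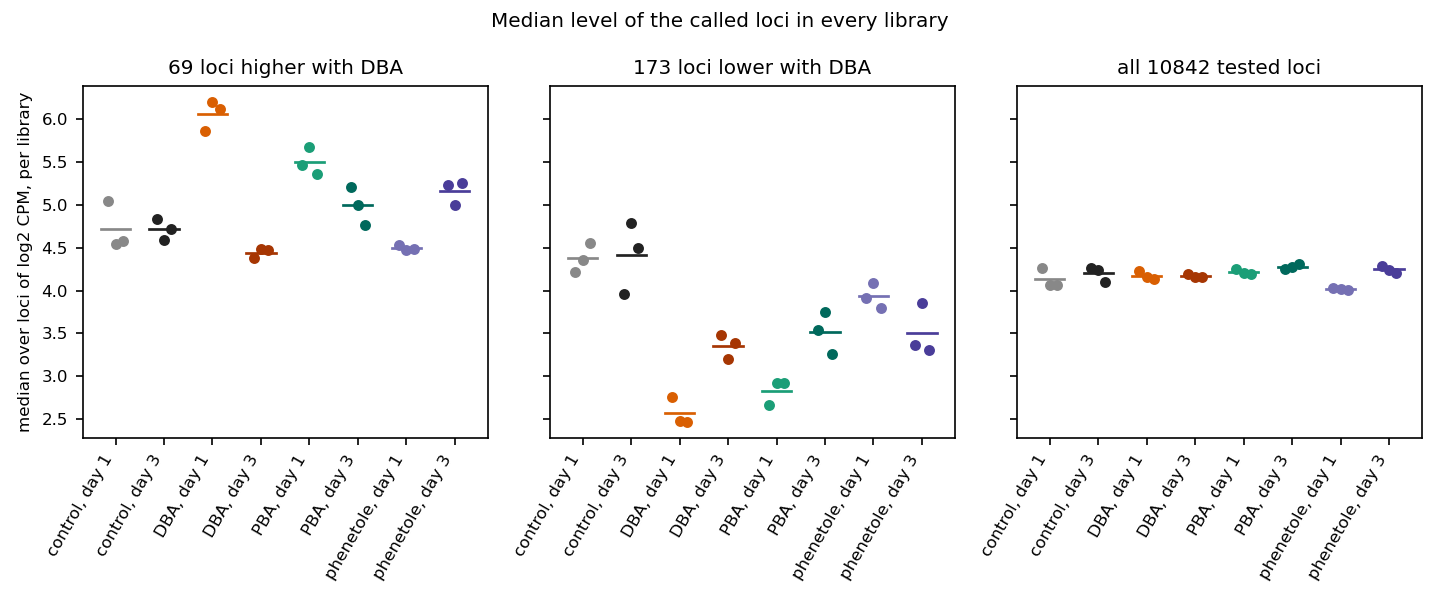
Median over loci of log2 CPM in each library (y axis) for the 69 higher, the 173 lower and all 10842 tested loci; points are flasks, bars are means of 3 flasks, DBA is 9,10-dibutoxyanthracene and PBA is 4-phenoxybenzoic acid. The higher loci stand at 6.06 with DBA at day 1 and 4.44 at day 3, and the lower loci, chosen for low levels with DBA at day 1, stand there at 2.57 and with PBA at day 1 at 2.83.

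The levels of libraries in neither compared group gave a further reading of these loci. Those libraries did enter the shared estimate of spread in the fit that made the calls, and with the compared groups alone only 2 loci were called. In 9,10-dibutoxyanthracene cultures of day 3 against the mean of both other compounds at day 3, 53 of the 69 higher loci (76.8%) were lower, against 52.1% of all loci. Of the 69, edgeR called 30 lower (43.5%; 19.3% of all loci tested) and 5 higher (7.25%; 19.2% of all). Their median log2 difference was −0.51, against −0.05 over all loci. The 173 lower loci were split, with 94 (54.3%) lower, 39 called lower and 36 called higher.

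The second reading was 4-phenoxybenzoic acid at day 1 against phenetole at day 3, a day 1 culture with dichloromethane against a day 3 culture without it. Here 57 of the 69 higher loci (82.6%) were higher, against 50.4% of all loci, and 126 of the 173 lower loci (72.8%) were lower, against 49.6%. The edgeR test called 5 of the higher loci higher (7.25%; 1.99% of all tested) and 44 of the lower loci lower (25.4%; 3.29% of all). The median log2 differences were 0.46 and −0.71, against 0 over all loci. Most of the higher and most of the lower loci were not called in this contrast, and compound, dose, solvent and day differ together in it. For example, Trisim1_010302 was lower by −2.86 ± 0.37 (adjusted p = 0.000108, edgeR) and Trisim1_009471 by −2.24 ± 0.33 (adjusted p = 0.000405), while Trisim1_008453 differed by 0.47 ± 0.35 (adjusted p = 0.498).

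**Figure D5:**
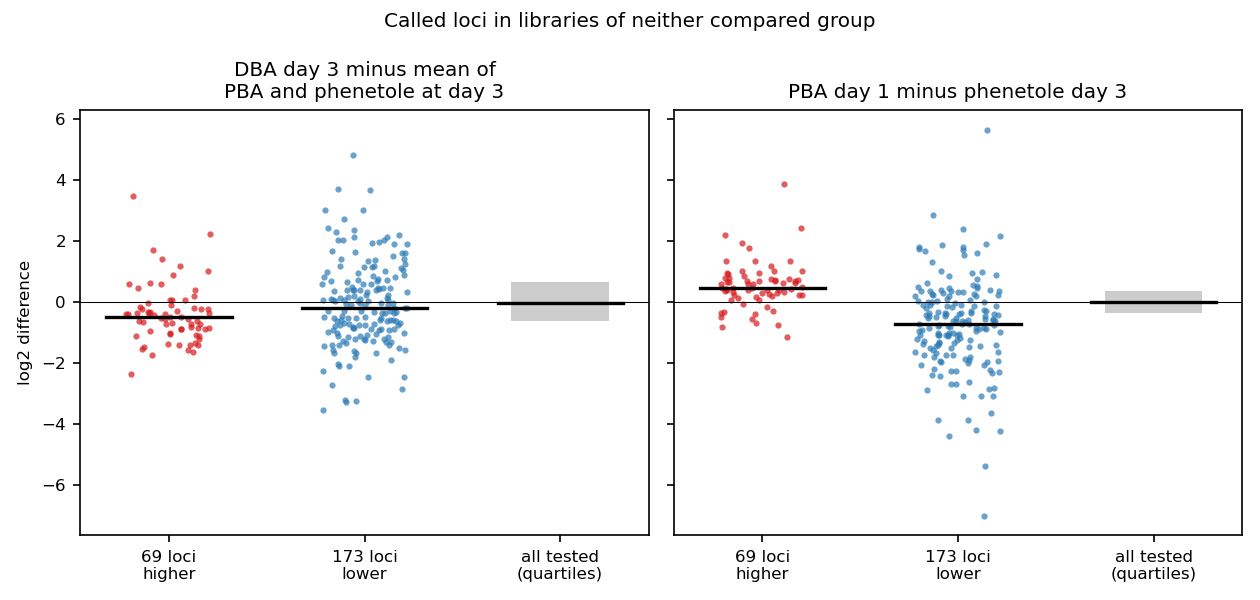
Log2 differences of the called loci in libraries of neither compared group (y axis), for day 3 cultures with 9,10-dibutoxyanthracene (DBA) against the mean of 4-phenoxybenzoic acid (PBA) and phenetole, and for PBA at day 1 against phenetole at day 3. Points are loci, black bars are medians and grey boxes span the quartiles of all tested loci; the 69 higher loci have medians of −0.51 and 0.46.

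The 9,10-dibutoxyanthracene cultures of day 1 were also compared with those of 4-phenoxybenzoic acid at day 1, at 5 mg/L against 10 mg/L. Compound, dose and solvent volume (2.5% against 5% of the culture) differ together there and cannot be told apart. The edgeR test called 8 of 10842 loci (0.0738%), 1 higher and 7 lower with 9,10-dibutoxyanthracene, with 933 at an unadjusted p under 0.05. Of the 242 loci called against the day 3 control it called 0, with 65 (26.9%) at an unadjusted p under 0.05, against 8.61% of all loci tested, and DESeq2 called 9 of them and 62 in all. Both contrasts share the treated libraries that chose the 242, so these shares are a description, and a p that misses the threshold does not show that the compounds acted alike. The nearest to a call among the 8 leading loci was Trisim1_006271, whose treated flasks at 39.9 to 94 CPM lay above those with 4-phenoxybenzoic acid at 20.6, 23.4 and 28.4 CPM. It differed by 1.62 (95% interval 0.94 to 2.3; adjusted p = 0.0764). For Trisim1_010302 the difference was −0.02 (−0.73 to 0.69), and for Trisim1_008453 it was −1.25 (−1.99 to −0.52; adjusted p = 0.269). Against the same day 3 control, 4-phenoxybenzoic acid cultures of day 1 were called at 578 loci (5.33%).

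Against the day 3 control the 8 loci that separated the compounds at day 1 had adjusted p from 0.29 to 0.948 (edgeR), where 2.23% of all loci were called. The single higher one was Trisim1_004508 (1272 bp), named after its values were seen. It held 50, 192 and 398 CPM with 9,10-dibutoxyanthracene and 24.5, 19.3 and 24.3 CPM with 4-phenoxybenzoic acid (3.23 on the log2 scale, 95% interval 1.97 to 4.5; adjusted p = 0.0397). The treated flasks differed widely, and overlapped the day 3 control at 55, 109 and 165 CPM. Among the lower ones, Trisim1_006101 (4518 bp) held 1.02, 2.11 and 1.46 CPM against 163, 184 and 337 CPM with 4-phenoxybenzoic acid (adjusted p = 7.89e-05), and 2.36 ± 1.38 CPM in the day 3 control. Its neighbour Trisim1_006100 (384 bp) held 0.622, 1.12 and 1.03 against 58.2, 106 and 184 CPM (adjusted p = 0.003). With phenetole at day 1, Trisim1_006101 and Trisim1_006100 were high as well, at 269 ± 134 and 376 ± 42.8 CPM. The count of 8 was 60 without 9,10-dibutoxyanthracene flask 1, 1 without its flask 2 or 3, and 5 without 4-phenoxybenzoic acid flask 2 or 3.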

How the data were processed

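Mycelial poly-A RNA was measured in 24 libraries, 8 groups of 3. The deposited table holds raw read counts per locus, made by the authors with featureCounts 1.5.0-p3, per the submitters' processing notes; no source used here names the aligner or genome build. A second deposited table holds FPKM by the authors, used for locus lengths and the limma alternative.

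From the counts, edgeR 4.0.16 (R 4.3.3) was fitted to all 24 libraries with TMM factors, after filterByExpr with a minimum count of 10, and its quasi-likelihood test was adjusted over 10842 loci by the Benjamini-Hochberg method, with calls at adjusted p under 0.05. SE came from the log2 difference and F. Tests of 2 differences took the larger p where signs matched. Time loci counted as matched had a 95% interval within 2-fold. Loci with 0 counts in a compared group were left out of that count, a choice made after the data were seen. Libraries held 16767477 to 19842379 counts, and counting intervals and floors (3 counts over a group) cover counting error only. Alternatives were DESeq2 1.42.0, limma 3.58.1 on log2(FPKM + 1), other scalings, filters and thresholds, a replicate block, the compared groups alone and each flask left out. The fit was tested on simulated data.

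Named loci were, at most 2 a direction for each result, the largest differences among called loci whose groups did not overlap and that held 10 counts in each library of the higher group, plus the longest numbered run each way. Loci called without any flask were added after their values were seen. The members and rules were chosen with earlier results of these data known.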

Additional observations from a re-analysis of the deposited data

Results flagged for a closer look

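For 15 of 30 named loci the effect of 9,10-dibutoxyanthracene against the control of the same day differed between day 3 and day 1, by the edgeR test of the difference itself (interaction term), which called 13.7% of all tested loci. The named loci were chosen on treated day 1 and control values that enter this difference, so the share is not read against that of all loci. For the matched time loci, chosen for a treated day 1 level near the day 3 control after a large control change, a large effect at day 1 follows from the choice. Values are the log2 effect at day 3 minus that at day 1. Among loci lower than the day 3 control, it was 1.63 for Trisim1_007470, 1.81 for Trisim1_008453, 2.02 for Trisim1_008454, 3.12 for Trisim1_006447, 2.82 for Trisim1_009471, 9.41 for Trisim1_003713 (0 counts in the treated day 1 group, so its size is no bound), 4.69 for the locus of 1071 bp outside the models and −5.22 for Trisim1_000192. Among higher loci it was −3.03 for Trisim1_007703, −1.56 for Trisim1_000751 and −2.86 for the locus of 3233 bp outside the models. Among matched time loci it was −4.19 for Trisim1_003518, −2.67 for Trisim1_009405, 5.18 for Trisim1_006480 and 2.76 for Trisim1_004707. The adjusted p ranged from 2.31e-06 (Trisim1_006480) to 0.0342 (Trisim1_000751).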

How the results depend on the processing

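The main count of 242 was 161 with library totals alone, 710 with DESeq2, 2 with the compared groups alone and 33 at adjusted p under 0.01, and 8 to 330 with 1 flask left out. The count outside both controls (75) was 25, 290, 2 and 5 under the same settings, and 2 to 96 with 1 flask left out. The count on the day 1 side (2) was 0 with totals alone, with the compared groups alone and at 0.01, 5 with no filter, 24 with DESeq2, 13 with limma and 0 to 13 with 1 flask left out. The count past the day 3 control (0) was 19 with DESeq2. The matched count (696) was 449 with totals alone, 453 with the compared groups alone, 361 at 0.01, 141 with an interval of 1.5-fold and 371 to 896 with 1 flask left out. The count against 4-phenoxybenzoic acid (8) was 62 with DESeq2, 15 with limma, 5 with the compared groups alone, 2 at 0.01 and 1 to 60 with 1 flask left out. Fits without a flask or group held fewer samples, and counts moved both ways when a flask was left out. The causes of these changes were not tested. Totals alone moved the median log2 difference of all loci from −0.02 to 0.12. In the libraries of neither compared group, the share of higher loci above 0 was 23.2% to 33.3% at day 3 and 77.8% to 88.3% for 4-phenoxybenzoic acid at day 1 against phenetole at day 3, and that of lower loci 45.7% to 48.9% and 24.8% to 29%, over the alternatives run for them. The matched count was not run with limma. No named log2 difference that was called changed sign. With the flask number as a replicate block the counts were 436 for the comparison, 155 outside both controls and 0 on the day 1 side. After group means were taken off, same-numbered flasks of the compared groups correlated at 0.46, −0.03 and 0.55. Differently numbered flasks correlated at −0.51 to 0.19. These values do not settle whether the numbers pair flasks, so the block was kept as an alternative only.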
